A study of Mus musculus with 12 samples.

Results

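The immediate early genes of neuronal activity were described as a set of 10, chosen by symbol: *Fos*, *Fosb*, *Junb*, *Egr1*, *Egr2*, *Arc*, *Npas4*, *Nr4a1*, *Ier2* and *Dusp1*. All 10 were found among the 19268 genes of the table, all 10 passed the filter on low values, and none was listed at 0 in any library. All are protein-coding, with *Junb* and *Ier2* on chromosome 8, *Arc* and *Nr4a1* on chromosome 15 and the other 6 on a chromosome each. The libraries came from forebrain without the olfactory bulb, of male mice on a C57BL/6J background that were 25 days old (P25, juvenile) or 60 days old (P60, adult). Mice of the knock-out (KO) groups were homozygous for a germline deletion of internal exons of *Shank3*, a scaffold gene of excitatory synapses, and mice of the wild-type (WT) groups carried 2 intact alleles. There were 4 groups of 3 libraries, P25-WT and P25-KO in juveniles and P60-WT and P60-KO in adults, and the labels give no litter, dissection day or hour of collection. Apart from a housing cycle of light and dark, the sources name no treatment or stimulus for any group, so the values are levels in mice that had no stated stimulation.

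Immediate early genes are transcribed within minutes of calcium entry or growth factor signalling, from transcription factors that are already present in the cell, such as CREB and the serum response factor. Most encode transcription factors that go on to switch on a slower wave of late response genes, while others act directly at synapses or shut off the kinase signal that started the response. In the forebrain they are known as reporters of recent neuronal firing, and their messages decay quickly, so their levels are read as a record of the time shortly before the tissue was taken.

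As a description, the bases just before the start site are shown for 5 of the 10 genes. Promoter windows from RefSeq (GRCm38.p6) were found for 7 of the 10 genes, all except *Egr1*, *Arc* and *Ier2*. The search covered both strands for the short cAMP response element (TGACG or CGTCA, a binding sequence of CREB), the full cAMP response element (TGACGTCA, which contains the short one), the CArG box of the serum response factor, and the Egr site (GCGNGGGCG). Matches are in capitals, each sequence runs 5′ to 3′ along the gene's own strand up to the last base before the start (for *Dusp1*, up to the first base of an annotated exon that begins before that start), and -1 is the base just before the start.
*Fos* (chr12:85473640-85473889, plus strand): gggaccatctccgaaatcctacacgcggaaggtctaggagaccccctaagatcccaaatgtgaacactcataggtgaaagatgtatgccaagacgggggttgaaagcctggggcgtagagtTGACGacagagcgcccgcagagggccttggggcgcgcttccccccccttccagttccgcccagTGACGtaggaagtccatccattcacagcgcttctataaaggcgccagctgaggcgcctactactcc
*Junb* (chr8:84978749-84978998, minus strand): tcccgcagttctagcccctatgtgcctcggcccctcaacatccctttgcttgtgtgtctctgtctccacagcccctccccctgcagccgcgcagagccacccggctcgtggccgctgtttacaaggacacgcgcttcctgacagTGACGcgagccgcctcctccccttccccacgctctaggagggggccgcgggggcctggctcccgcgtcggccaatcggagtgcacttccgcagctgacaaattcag
*Egr2* (chr10:67537619-67537868, plus strand): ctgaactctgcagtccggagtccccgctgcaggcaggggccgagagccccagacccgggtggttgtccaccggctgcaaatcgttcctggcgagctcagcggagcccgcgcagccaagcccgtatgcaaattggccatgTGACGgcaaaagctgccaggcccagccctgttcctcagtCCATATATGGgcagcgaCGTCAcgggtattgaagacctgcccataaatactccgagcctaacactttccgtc
*Nr4a1* (chr15:101266596-101266845, plus strand): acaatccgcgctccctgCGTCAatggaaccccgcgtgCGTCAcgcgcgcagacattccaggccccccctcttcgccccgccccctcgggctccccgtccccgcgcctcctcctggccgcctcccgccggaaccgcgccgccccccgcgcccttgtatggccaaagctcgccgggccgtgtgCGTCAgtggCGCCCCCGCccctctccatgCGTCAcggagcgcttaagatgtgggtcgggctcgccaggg
*Dusp1* (chr17:26508520-26508722, minus strand): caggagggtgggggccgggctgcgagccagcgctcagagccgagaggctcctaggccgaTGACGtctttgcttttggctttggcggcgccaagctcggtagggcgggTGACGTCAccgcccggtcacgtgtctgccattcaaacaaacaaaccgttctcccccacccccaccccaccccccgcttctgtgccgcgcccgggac

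The short cAMP response element stood in the windows of 7 of 7 genes (250 bases before to 50 after the start), against 23.0% of all 27025 genes with such a window. *Fos* had it at -129 to -125 and at -66 to -62. *Nr4a1*, which encodes an orphan nuclear receptor, had 4 matches, the nearest at -40 to -36, and *Junb* had 1, at -106 to -102. The full element was found in *Dusp1* alone, at -143 to -136, and in 2.03% of all genes. The CArG box was found in *Egr2* alone, at -72 to -63 in the window shown, and in 1.81% of all genes; *Egr2* had 5 windows, which gave it more bases to match than a gene with a single window. The Egr site was found in *Fosb* and *Nr4a1*, and in 6.27% of all genes. A match is a run of letters in this window and was not tested as a binding site. Bases farther than 250 before the start were not searched, so a gene without a match here may hold the element elsewhere.

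Some of the 10 genes share sequence with others, which bears on how firmly their values can be assigned. The library kit does not mark strand, so reads from the overlap of genes on opposite strands cannot be told apart. *Junb* overlaps *Prdx2* on the opposite strand by 173 exonic bases, and 6.51% of its 31-base words occur in transcripts of that gene. *Dusp1* overlaps *Ergic1* on the opposite strand by 11 bases, and 0.406% of the words of *Egr2* are also found in *Egr3*. No words were shared by *Fos*, *Egr1*, *Arc*, *Npas4*, *Nr4a1*, *Ier2* or *Dusp1* with any other gene, and for *Fosb* the share was 0.0472%.

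As a check of the labels, *Shank3* was lower in all 3 KO libraries than in every WT library at each age, with a log2 fold change of -1.06 ± 0.09 (SE; limma adjusted p = 0.0134) at P25 and -0.99 ± 0.07 (limma adjusted p = 0.0022) at P60. The deposited values are signal on a count scale, normalized by the authors, and their totals lay between 30568259 and 32348554 per library. Between libraries, Pearson's r over all genes ranged from 0.971 to 0.990. The depth in reads is unknown, so no counting interval could be given. Nothing in the labels states that libraries of a group came from separate litters, so p-values measure the spread between these libraries.

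*Fos* encodes the AP-1 subunit c-Fos and is the most used marker of recently active neurons. Its normalized counts were 699, 605 and 1398 in P25-KO replicates 1, 2 and 3, and 787, 577 and 1826 in P25-WT. At P60 they were 1103, 1111 and 1031 in KO and 672, 753 and 1138 in WT. Replicate 3 of each juvenile group stood above every other library, the remaining P25 libraries and 2 of the P60-WT libraries lay below every P60-KO library, and the KO and WT ranges overlapped at both ages.

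*Fosb* encodes another Fos-family subunit, whose truncated form is long lived and accumulates with repeated stimulation. It read 437, 181 and 631 in P25-KO and 560.3, 124 and 833 in P25-WT. In adults it read 493, 413 and 442 in KO and 397, 280.1 and 470.2 in WT. Replicate 2 was the lowest library in both P25 groups, by 3.48-fold below replicate 3 in KO and by 6.74-fold in WT, and the adult libraries fell within the juvenile range. *Junb*, the Jun-family partner of Fos proteins in AP-1, ranged from 1227 to 2439.8 in P25-KO, from 1178 to 2906 in P25-WT, from 1703 to 2259 in P60-KO and from 1715 to 2045 in P60-WT.

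*Egr1* (also known as Zif268) and *Egr2* encode zinc finger transcription factors that bind GC-rich sites; *Egr1* is used as a marker of synaptic plasticity and *Egr2* (Krox20) also has a role in hindbrain patterning and in Schwann cells. *Egr1* ranged from 7102 to 10964 in P25-KO and from 5992 to 13663 in P25-WT, whereas the adult KO libraries read 9572, 9379 and 9259.8 and adult WT ranged from 7229.6 to 11132. *Egr2* read 166, 95.9 and 434 in P25-KO and 199.8, 104 and 732 in P25-WT. In adults *Egr2* read 255, 254 and 188 in KO and 229.6, 154 and 311 in WT. *Egr2* had the widest range of the 10 genes, 7.64-fold between its lowest and highest library, both of them juvenile.

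*Npas4* encodes a basic helix-loop-helix factor that responds to calcium entry and regulates inhibitory synapses. It read 378, 751 and 665 in P25-KO, 501, 484 and 777 in P25-WT, 1044, 863 and 944 in P60-KO, and 694, 791 and 1021 in P60-WT. The P60-KO libraries all lay above the P25-KO libraries, and 2 of 3 P60-WT libraries lay above all P25-WT libraries. *Nr4a1* (Nur77) read 1790.0, 2276 and 3822 in P25-KO and 1798, 2168 and 4581 in P25-WT, and in adults lay between 2828 and 3584 in KO and between 2545 and 3346 in WT.

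*Arc* differs from the genes above in that its product is no transcription factor: it works at the synapse, where it promotes removal of AMPA receptors from the membrane. *Arc* read 3107, 4029 and 9332 in P25-KO and 3734, 4491 and 11583 in P25-WT. At P60 it read 8436, 5883 and 6669 in KO and 6943, 5757 and 9172 in WT. In juveniles, replicates 1 and 2 of both genotypes lay below all 6 adult libraries and replicate 3 of both lay above all 6.

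*Ier2* encodes a small nuclear protein and *Dusp1* (MKP-1) a phosphatase that inactivates MAP kinases and so limits the signal that induces these genes. Both had narrow ranges, 1.90-fold for *Ier2* and 1.92-fold for *Dusp1* over the 12 libraries. *Ier2* ranged from 222 to 400.1 in P25-KO, from 226 to 423 in P25-WT, from 282 to 302 in P60-KO and from 231 to 305 in P60-WT. *Dusp1* ranged from 698 to 1111, from 664 to 1274, from 1038 to 1256 and from 953 to 1223 in the same order of groups.

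**Figure D1:**
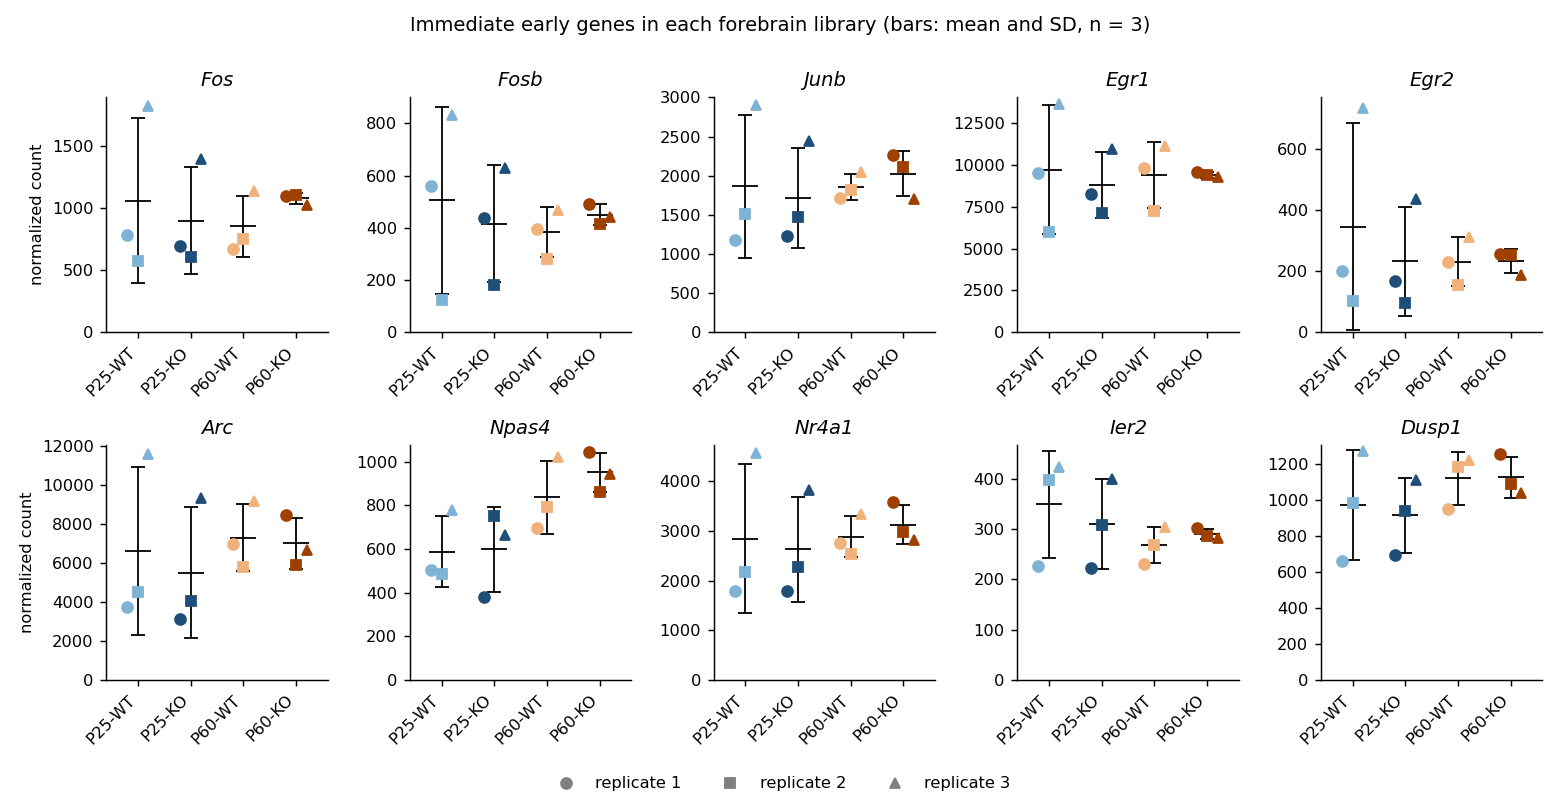
Normalized count (vertical axes, each from 0, signal on a count scale) of the 10 genes in each of the 12 libraries, by group. Symbols give the replicate number and bars the mean and SD of 3 libraries; the P25 triangles (replicate 3) stand highest in both genotypes for every gene except *Npas4* in P25-KO.

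Divided by the length of the longest annotated transcript, the levels over all 12 libraries were ordered as follows. *Arc* (mean 2159 ± 855 normalized counts per kb, SD, n = 12) and *Egr1* (2079.5 ± 459) were the most abundant, above 96.1% and 95.9% of genes with a length. *Nr4a1* (1125 ± 331) and *Junb* (1032 ± 283) came next, followed by *Fos* (462.6 ± 176) and *Dusp1* (447 ± 86.8). The lowest were *Ier2* (200.2 ± 45.4), *Npas4* (196 ± 55.9), *Fosb* (116 ± 50.7) and *Egr2* (87.8 ± 59.1). The libraries of each gene overlapped with those of its neighbour in this order, except between *Dusp1* (at least 287) and *Ier2* (at most 278). The ranges alone thus did not resolve the order of other neighbours, and neighbours were not compared within single libraries. With the union of all exons *Nr4a1* came to 819 and *Fosb* to 70.2 per kb.

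To ask whether loss of *Shank3* changed these genes, KO and WT were compared within each age and over both ages. No member passed the test in any of these comparisons. With limma on log2(value + 1), 0 of 10 genes were called at P25, where 0.00571% of all genes tested (1 of 17515, *Shank3*) were called, and 0 of 10 at P60, where 0.00568% were. Over both ages with age as a covariate, 0 of 10 were called, with 0.00568% of all genes. At an unadjusted p under 0.05, the count was 0 of 10 at P25, 1 of 10 at P60 and 0 of 10 over both ages, against 238, 440 and 361 of all genes. In bulk tissue, fewer cells that express a gene and less RNA per cell cannot be told apart, so each of these values is a difference in the mixture.

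At P25 the log2 fold changes (KO against WT) lay between -0.38 for *Egr2* (SE 0.71) and 0.00 for *Npas4* (SE 0.26), with 9 of 10 below 0 and a median of -0.08 against -0.01 for all genes. The 95% intervals were wide: -1.98 to 1.23 for *Egr2*, -1.12 to 0.80 for *Fos* and -1.31 to 0.82 for *Arc*. Two-sided exact permutation p-values ranged from 0.6 to 1.0, where 0.1 is the smallest that 3 against 3 libraries allow.

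At P60 the intervals were narrower, 9 of 10 log2 fold changes were above 0, and their median was 0.12 against 0.00 for all genes. *Fos* had the largest, 0.38 ± 0.16 (KO mean 1082 ± 43.8, WT mean 854 ± 249, SD, n = 3), with a limma adjusted p of 1.0 and a two-sided exact permutation p of 0.4. Its KO libraries lay between 1031 and 1111, inside the WT range of 672 to 1138, and the difference was 0.22 without P60-WT replicate 1 and 0.60 without P60-WT replicate 3. For *Arc* the difference was -0.05, with a 95% interval from -0.43 to 0.33, and for *Egr1* it was 0.02, from -0.26 to 0.31. Over both ages the 10 differences ranged from -0.16 (*Egr2*) to 0.11 (*Fos*), 5 on each side of 0, with two-sided exact permutation p-values (libraries permuted within ages) from 0.605 to 0.895. The sign of these small values depends on single libraries for 9 of the 10 genes, all except *Npas4*.

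The genotype difference was also compared between ages. The interaction (KO against WT at P60 minus the same at P25) was above 0 in all 10 genes, from 0.08 for *Dusp1* to 0.54 ± 0.51 for *Fos*, and 0 of 10 passed the test, with 0.0% of all genes called by limma and 288 of 17594 at an unadjusted p under 0.05. The 10 values come from the same libraries and are not independent of each other.

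**Figure D2:**
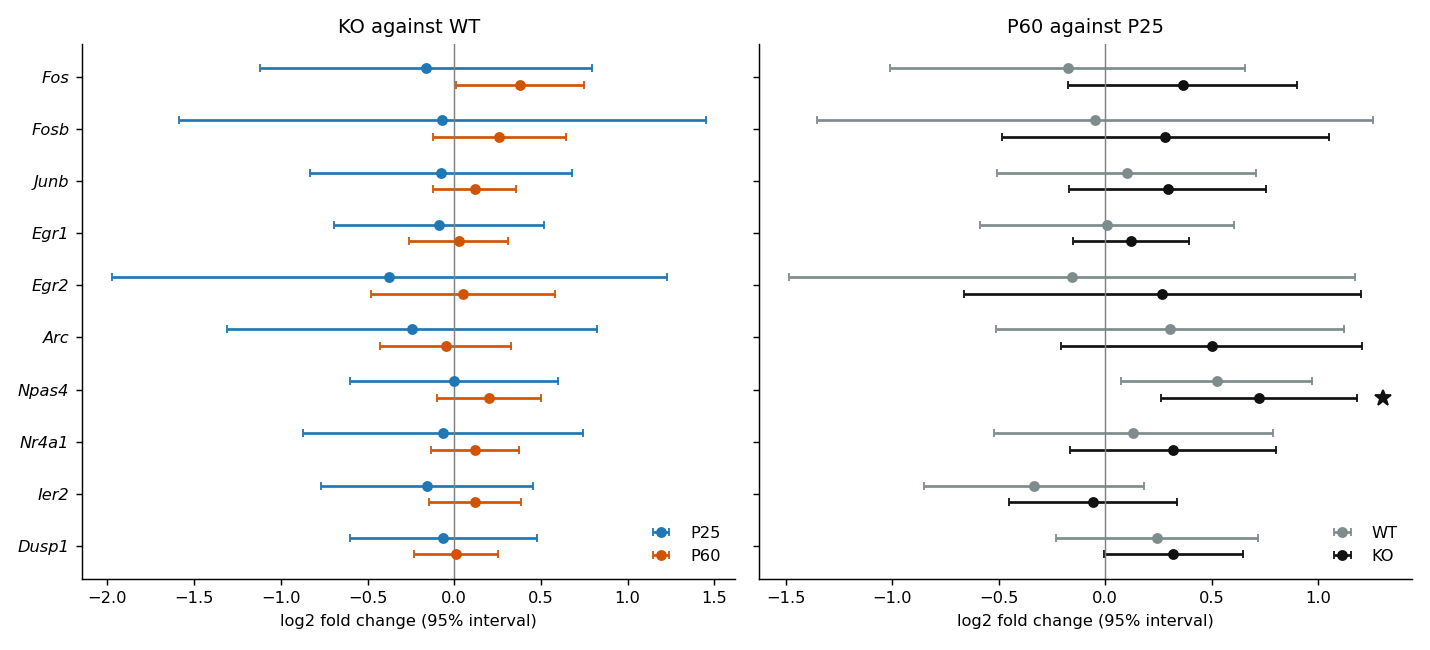
Log2 fold change of each gene with its 95% interval from limma, KO against WT at P25 and P60 (left) and P60 against P25 in WT and KO (right). The star marks an adjusted p under 0.05; only *Npas4* in KO carries one, and the P25 intervals on the left are wider than the P60 intervals.

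The adult and juvenile groups were then compared. *Npas4* was higher at P60, and the other 9 genes did not pass the test. Over both genotypes its mean was 893 at P60 and 593 at P25, a log2 fold change of 0.62 ± 0.16 (1.54-fold; limma adjusted p = 0.00778; two-sided exact permutation p = 0.01, where 0.005 is the smallest possible). This was 1 of 10 members called, against 37.6% of all genes tested, and 0 of 10 members had P60 libraries that did not overlap the P25 libraries, against 19.6% of all genes. In KO alone *Npas4* rose by 0.72 ± 0.21 on the log2 scale (limma adjusted p = 0.0345; 1 of 10 members, 20.7% of all genes), and its 3 adult libraries lay above its 3 juvenile libraries; the KO libraries of the 2 ages did not overlap, in either direction, in 39.4% of all genes. In WT the value was 0.52 ± 0.20 with a limma adjusted p of 0.124, so that 0 of 10 members were called (1 at an unadjusted p under 0.05), against 8.65% of all genes. Whether the age difference of *Npas4* differed between genotypes was tested by the interaction, 0.20 ± 0.33 (limma adjusted p = 1.0).

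The *Npas4* call over both genotypes was made without any 1 of the 12 libraries, with a limma adjusted p of at most 0.022, but that in KO alone was lost without P25-KO replicate 3 (0.0501) and without P60-KO replicate 1 (0.0982), 2 (0.05) or 3 (0.0782). The KO call was also lost with no intensity trend and with all 4 groups in the fit. In WT the call was gained without P25-WT replicate 3 (0.021) and with the replicate number added as a block (limma adjusted p = 0.0283). Markers of other cell types moved with age beside it: 8 of 8 oligodendrocyte markers, 5 of 5 blood markers and 6 of 8 astrocyte markers were lower at P60 over both genotypes by limma, against 19.3% of all genes, 3 of 6 choroid plexus markers were higher, against 18.3%, and of 10 glutamatergic markers 2 were higher and 4 lower. The summed normalized counts of the oligodendrocyte markers were 400691 to 516486 in the juvenile libraries and 196419 to 224349 in the adult ones, and those of the blood markers were 20503 to 42983 and 5894 to 7305. None of these markers was at 0 in any library, and their part in the *Npas4* difference was not tested.

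The other 9 genes had age differences from -0.20 ± 0.16 for *Ier2* to 0.40 ± 0.28 for *Arc* over both genotypes, 8 of them above 0. *Dusp1* was at 0.28 ± 0.14 (limma adjusted p = 0.128), *Nr4a1* at 0.22 ± 0.21 and *Junb* at 0.20 ± 0.19. These values changed with the juvenile libraries that stood highest. Without P25-WT replicate 3, *Arc*, *Npas4*, *Nr4a1* and *Dusp1* were called higher at P60 over both genotypes, with 18.5% of all genes. In WT alone, *Junb*, *Arc*, *Npas4* and *Nr4a1* were called higher without P25-WT replicate 3 (5.59% of all genes), and *Fosb* was called lower without P25-WT replicate 2 (8.05% of all genes). The share of all genes called in WT, in either direction, itself ran from 0.693% to 13.7% when 1 library was left out. In KO alone, 7 genes (*Fos*, *Junb*, *Egr1*, *Egr2*, *Arc*, *Nr4a1* and *Dusp1*) were called higher without P25-KO replicate 3, with 5.0% of all genes, and *Npas4* was not. Without the third replicate of both P25 groups, which was left out because its values had been seen to be the highest, 7 genes were called higher at P60 over both genotypes, with 15.8% of all genes: *Fos*, *Junb*, *Egr2*, *Arc*, *Npas4*, *Nr4a1* and *Dusp1*. Leaving out the libraries that were highest in these genes lowers the juvenile mean and spread by construction, so these calls are a description and support nothing.

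The spread between libraries of the same group differed between groups, but at P60 not in the same way for every gene. In P60-KO the highest library was 1.03-fold above the lowest for *Egr1*, 1.07-fold for *Ier2* and 1.08-fold for *Fos*, the narrowest of the 10 genes there. In P60-WT these ranges were 1.54-fold, 1.32-fold and 1.69-fold. *Junb* went the other way, with 1.33-fold in P60-KO and 1.19-fold in P60-WT. *Nr4a1* (1.27-fold and 1.31-fold) and *Dusp1* (1.21-fold and 1.28-fold) were similar in both. Pooled within each age, the SD of the log2 values was larger at P25 than at P60 in 10 of 10 genes, against 60.8% of all genes tested. The 10 genes come from the same libraries and vary together, so these are not 10 independent observations. The ratio of the 2 SDs ran from 2.06 for *Npas4* to 4.28 for *Fosb*, with a median of 3.0 against 1.19 over all genes. For *Egr2*, the SD was 1.27 at P25 and 0.40 at P60, and for *Egr1* 0.48 and 0.23. The median over the 10 genes was 0.62 at P25, where the median gene of the table had 0.163.

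After the values had been seen, the order of the libraries within each group was examined. At P25, the 3 KO libraries and the 3 WT libraries stood in the same order by replicate number in 9 of 10 genes, against 14.6% of all genes, and replicate 3 was highest in both genotypes in 9 of 10, against 10.1%. *Fos*, *Fosb*, *Egr1* and *Egr2* ran in the order 3, 1, 2 in both genotypes, whereas *Junb*, *Arc*, *Nr4a1*, *Ier2* and *Dusp1* ran in the order 3, 2, 1. *Npas4* was the exception, with the order 2, 3, 1 in KO and 3, 1, 2 in WT. In *Egr2*, replicate 3 was 3.32-fold above the mean of replicates 1 and 2 in KO and 4.83-fold above it in WT. In *Arc* these ratios were 2.62 and 2.82, and in *Ier2*, among the smallest, 1.51 and 1.35.

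At P60 no gene of the 10 had the same order in both genotypes, against 26.5% of all genes. Replicate 3 was highest in P60-WT in 10 of 10 genes, while in P60-KO replicate 1 was highest in 9 of 10 and *Fos* had replicate 2 highest. Over the 10 genes, the deviations of same-numbered KO and WT libraries from their group means correlated at P25 with r = 0.86, 0.90 and 0.95 for numbers 1, 2 and 3, and at P60 with r = 0.18, -0.07 and -0.05. Between ages, the same-numbered libraries correlated with r = 0.47, 0.85 and 0.75 in WT and with r = -0.46, -0.31 and -0.51 in KO. Over all genes the P25 values between genotypes were 0.04, -0.04 and -0.07. These are correlations across genes, which are not independent replicates. The labels do not say that a number marks a shared litter, day or batch, and the part of any of these in the shared order was not tested.

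**Figure D3:**
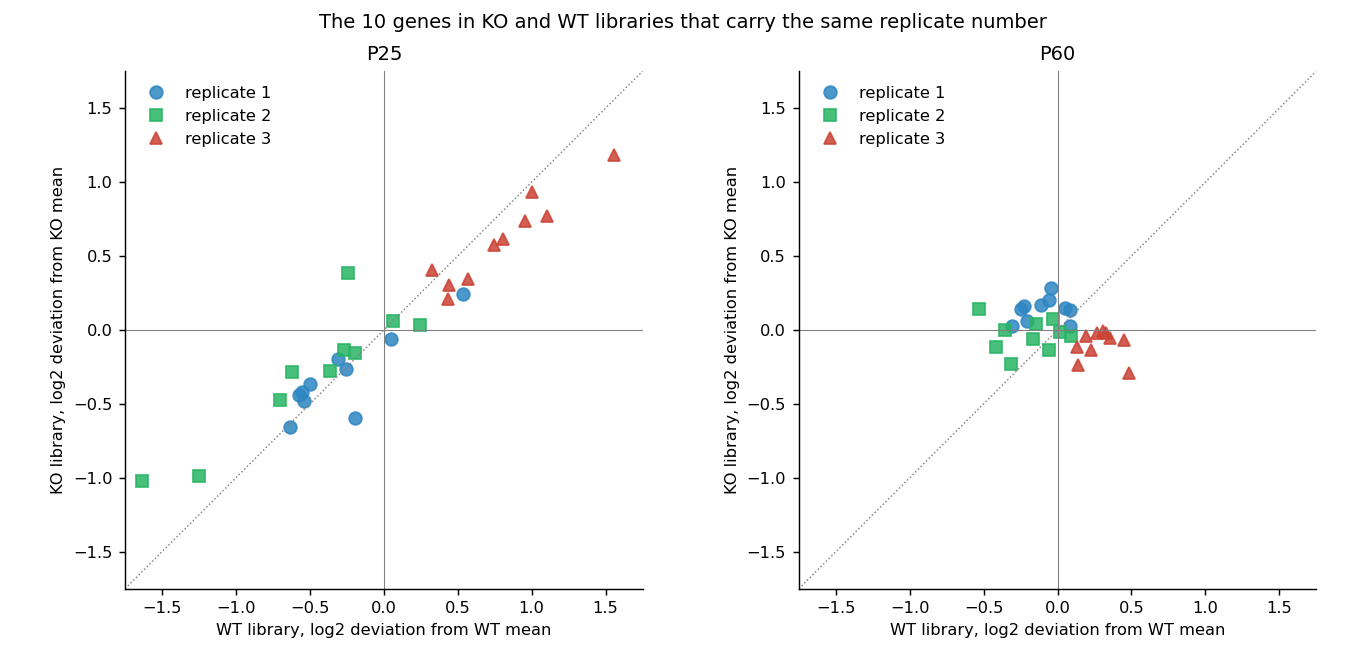
Log2 deviation of each of the 10 genes from its group mean in a KO library (vertical) against the WT library with the same replicate number (horizontal), at P25 (left) and P60 (right). At P25 the points lie along the dotted line of equal deviation (r = 0.86 to 0.95 across genes within a number), and at P60 they do not (r = -0.07 to 0.18).

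Pairs of the 10 genes were then correlated over the 12 libraries. Of 45 pairs, 22 had a Pearson's r of at least 0.7, against 5.65% of all pairs of genes tested, and the median was 0.70 with a range from -0.05 to 0.98. With the group means removed, 27 pairs reached 0.7 and the median was 0.77. Without the third replicate of both P25 groups, 17 pairs did. All genes of a library share its scaling, dissection and RNA, and scaling each library to the same total left 23 pairs at or above 0.7.

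*Junb* and *Nr4a1* were the closest pair (r = 0.98, rho = 0.95, permutation p = 1e-05 and 4e-05, of which the first is the smallest the resampling can give), and r was 0.97 without the 2 libraries farthest from the median of *Junb*. *Arc* and *Nr4a1* followed (r = 0.97, rho = 0.96, permutation p = 1e-05 and 3e-05; r = 0.95 without the 2 farthest). *Egr1* and *Egr2* (r = 0.94, rho = 0.95, permutation p = 3e-05 and 2e-05; 0.91 without the 2 farthest) and *Fosb* and *Egr1* (r = 0.93, rho = 0.81, permutation p = 4e-05 and 0.00222; 0.88) were also close. These p-values are unadjusted, from 45 pairs, and take the 12 libraries as independent.

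The pairs differed in how close they were, with 44 of 45 above 0. The groups named here were picked from these correlations, and a split of the 10 genes was not tested. *Fos*, *Fosb*, *Egr1* and *Egr2* correlated among themselves with r of 0.80 to 0.94, and *Junb*, *Arc*, *Nr4a1* and *Dusp1* with r of 0.84 to 0.98. Lower values were found for *Fosb*, which had an r of 0.12 with *Dusp1*, 0.47 with *Junb* and 0.52 with *Nr4a1*. *Ier2* was close to *Dusp1* once group means were removed (r = 0.95, against 0.62 with them). Its r with *Fosb* was -0.05 and not stable. Without the 2 libraries farthest from the median of *Fosb* it was 0.64, and with 1 library left out it ran from -0.35 to 0.36. *Npas4* was closest to *Dusp1* (r = 0.80) and had an r of 0.22 with *Fosb*. Within P60 alone, over 6 libraries, the median r of the 45 pairs was 0.69.

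**Figure D4:**
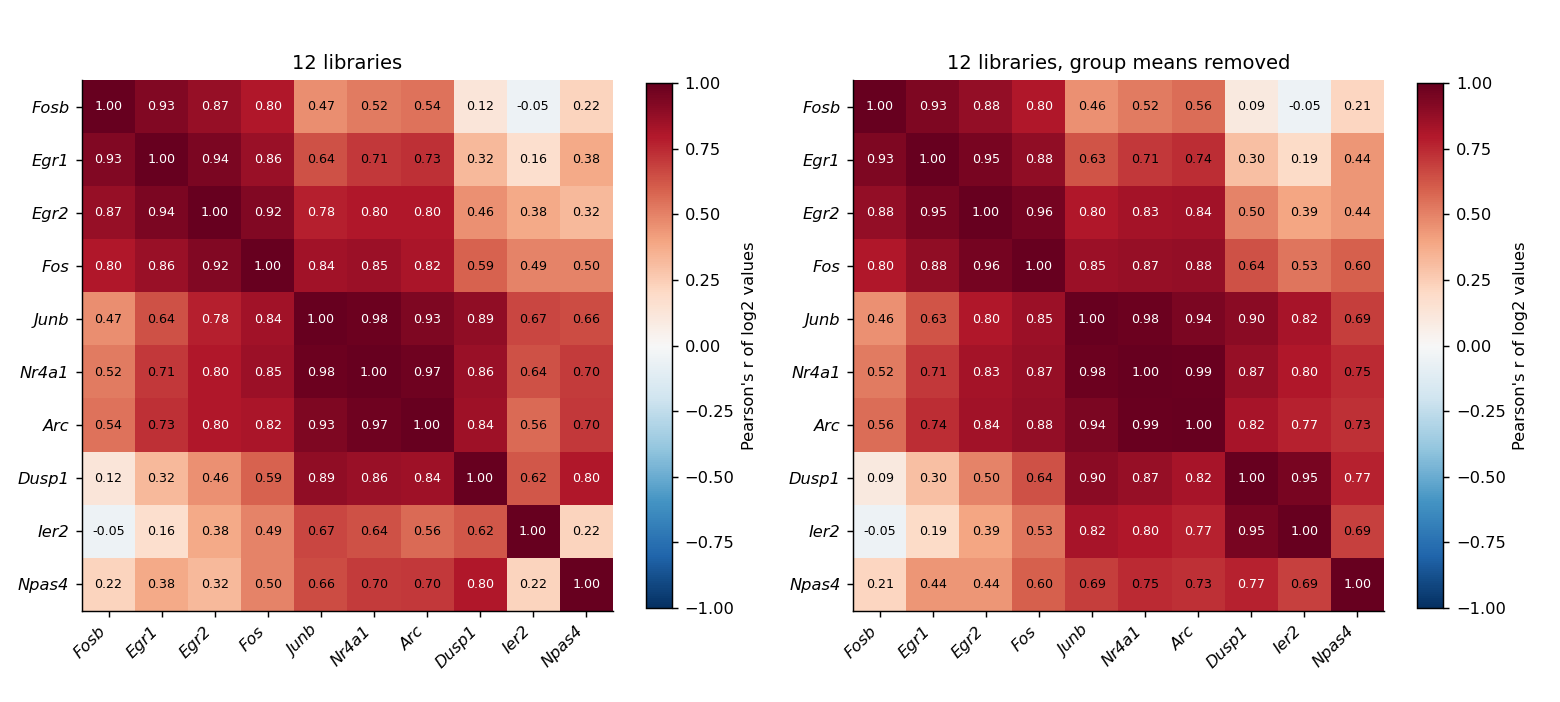
Pearson's r of log2(value + 1) for each pair of the 10 genes over the 12 libraries (left) and of the deviations from the group means (right), from -1 (blue) to 1 (red). The block of *Fosb*, *Egr1*, *Egr2* and *Fos* (r of 0.80 to 0.94) and the block of *Junb*, *Nr4a1*, *Arc* and *Dusp1* (0.84 to 0.98) stand out on the left, and *Npas4* has its highest value there with *Dusp1* (0.80).

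For each member, the 3 other genes most like it were found among 12907 genes with a mean of at least 100, by Pearson's r of the deviations from group means over the 12 libraries. These were 21 different genes, 7 of them on the list of other immediate early genes. *Egr2* was most like *Nab2* (r = 0.99), which encodes a corepressor that binds Egr proteins, and *Egr1* was most like *Fosl2* (0.99), another AP-1 subunit. *Nab2* read 1100.2, 959 and 1410.4 in P25-KO and 1029, 898 and 1418 in P25-WT, a narrower range than that of *Egr2*. The order of the libraries in these genes follows from how they were chosen. *Nr4a3*, a relative of *Nr4a1*, was the next for both *Egr1* (0.98) and *Egr2* (0.97).

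*Junb*, *Arc* and *Nr4a1* had the same first gene, *Klf10*, a TGF-beta inducible zinc finger factor (r = 0.98, 0.96 and 0.99). *Klf10* read 642, 814 and 1115 in P25-KO and 628, 678 and 1156 in P25-WT. *Trib1*, a pseudokinase gene, led for *Fos* (0.97), and *Dusp6*, whose product inactivates ERK, was the third for *Arc* (0.94). *Fosb* was most like *Sh3pxd2b* (0.96) and then *Per2* (0.96), a clock gene with 1767, 1272 and 1893 in P25-KO and 1999, 1057 and 2107 in P25-WT.

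*Ier2* and *Dusp1* shared their 2 leading genes, *Btbd19* (0.96 and 0.94) and *Lca5* (0.91 for both). *Npas4* was most like *Boc* (0.98) and *Notch1* (0.89), none of its 3 genes being on any of the lists used here. The closest member to *Npas4* was *Dusp1*, ranked 67 of 12906 genes, whereas for *Arc* and *Dusp1* another member ranked first.

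The rest of the activity response was followed with lists of known genes. None of 35 other immediate early genes, 22 late response genes, 34 upstream kinases, channels and transcription factors, or 14 AP-1 partners and repressors was called by limma between KO and WT at P25, at P60 or over both ages. At an unadjusted p under 0.05 there were 0 of these genes at P25, 1 of the other immediate early genes and 1 late response gene at P60, and 1 and 2 of them over both ages. With 0.00571%, 0.00568% and 0.00568% of all genes called and 238, 440 and 361 at an unadjusted p under 0.05, these counts say nothing particular to the lists. The medians of the log2 fold changes of the other immediate early genes were 0.02 at P25 and 0.01 at P60, close to -0.01 and 0.00 for all genes. At P25, 15 of these 35 genes had KO and WT libraries in the same order by number and 20 of 35 had replicate 3 highest in both, against 14.6% and 10.1% of all genes. Of 22 late response genes, 5 had each pattern, and the difference between the lists was not tested.

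Per library, the mean log2 deviation of the other immediate early genes from the 12-library mean was 0.23 in P25-KO replicate 3 and 0.29 in P25-WT replicate 3, and between -0.17 and 0.11 in the other 10. For the 10 members it was 0.45 and 0.77 in these 2 libraries, from -0.53 to -0.33 in the other 4 juvenile libraries, and from -0.16 to 0.32 in the adult ones. The glutamatergic neuron markers, 10 of 10 above 0 in every library, deviated by -0.03 to 0.07 in the juvenile libraries. Their summed normalized counts were 161039 to 169429 in P25-KO and 161232 to 169794 in P25-WT, and 141742 to 144995 in P60-KO and 141034 to 147447 in P60-WT.

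Glucocorticoid response genes report stress hormone signalling. Their mean deviation was -0.34 in P25-KO replicate 2 and -0.27 in P25-WT replicate 2, and between 0.11 and 0.30 in the other 4 juvenile libraries. Replicate 2 was lowest in both genotypes in 10 of 14 of these genes at P25, and in 4 of the 10 members (*Fos*, *Fosb*, *Egr1* and *Egr2*), against 11.4% of all genes. Circadian clock genes had 9 of 16, heat shock genes 6 of 14, other immediate early genes 11 of 35 and late response genes 7 of 22, and differences between these lists were not tested. The part of these in the order of the members was not tested. Blood markers were highest in P25-KO replicate 3 (mean deviation 1.63) but not in P25-WT replicate 3 (0.67, against 1.40 in replicate 2). Within each juvenile group, olfactory bulb markers were highest in replicate 3 (mean deviation 0.20 in KO and 0.43 in WT). At P25, replicate 3 was highest in both genotypes in 3 of 5 of these and 4 of 8 astrocyte markers, against 10.1% of all genes. This held for 0 of 10 glutamatergic and 0 of 5 blood markers. The part of tissue markers in the order of the members was not tested. Markers of cerebellum and hindbrain, where *Gabra6* was listed at 0 in 5 libraries and *Hoxb3* in 3, reached 2.72 in P60-WT replicate 2 and 1.73 in P60-KO replicate 1, and their summed normalized counts were at most 205 in the juvenile libraries.

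**Figure D5:**
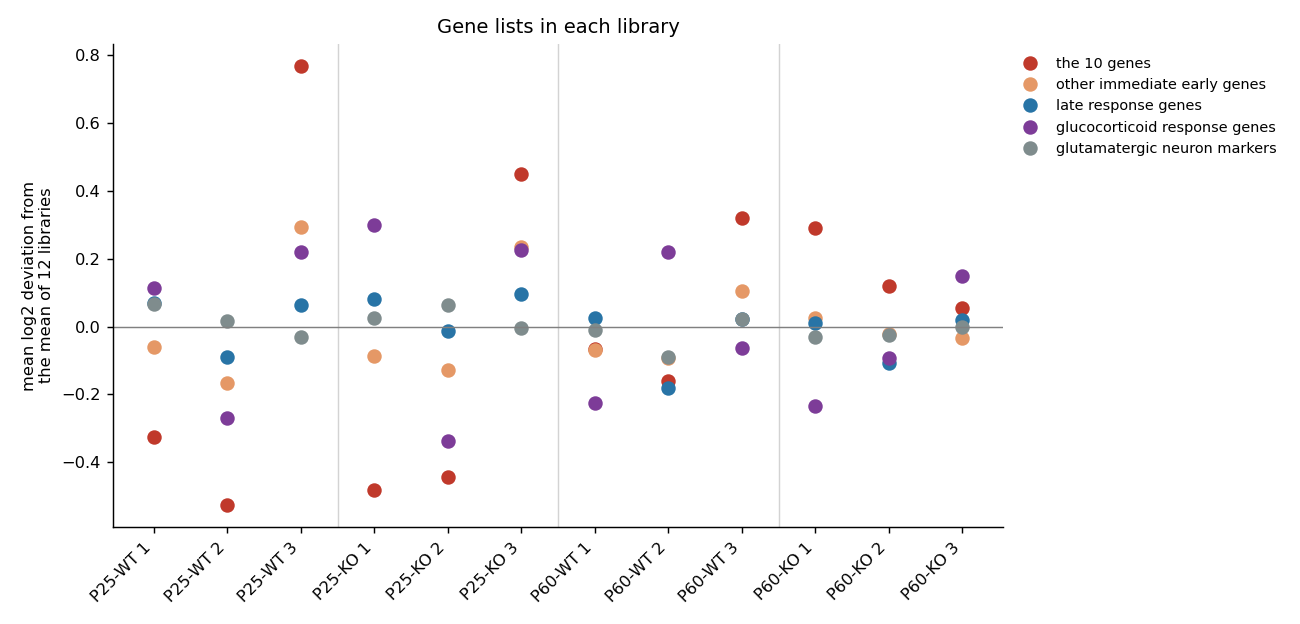
Mean log2 deviation from the mean of the 12 libraries (vertical axis) of the 10 genes and of 4 other gene lists, in each library (horizontal axis). The 10 genes span -0.53 to 0.77 at P25, the other immediate early genes -0.17 to 0.29, and the glutamatergic markers stay between -0.09 and 0.07.

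Between ages, 18.3% of all genes were called higher and 19.3% lower at P60 over both genotypes, and the counts of the related lists are given beside these shares without a test against them. Among the other immediate early genes, 3 of 35 were called higher and 5 lower, both smaller shares than those of all genes, with a median of -0.02 against 0.00 for all genes. *Fbxo33* (0.46 ± 0.07, limma adjusted p = 3.1e-04) and *Ier3* (0.42 ± 0.09, limma adjusted p = 0.00307) had the smallest adjusted p of those that rose, and *Gadd45g* (-0.40 ± 0.08) and *Plk3* (-0.39 ± 0.10) of those that fell. Among late response genes 3 of 22 rose and 7 fell (median -0.07), with *Inhba*, an activin subunit gene, at 0.69 ± 0.14 and *Pcsk1* at 0.25 ± 0.09, and with *Plat*, tissue plasminogen activator, at -0.60 ± 0.06 and *Kcnj4* at -0.36 ± 0.04.

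Upstream of the members, 10 of 34 genes rose and 6 fell (median 0.04), where 37.6% of all genes were called in either direction. *Camkk1*, a kinase of the calcium pathway to CREB, was at 0.44 ± 0.06 and *Rps6ka3*, a CREB kinase, at 0.36 ± 0.07, whereas *Mapk3*, which encodes ERK1, was at -0.37 ± 0.05 and *Map2k2*, which encodes its activator MEK2, at -0.21 ± 0.04. Of 14 partners and repressors, 4 rose and 0 fell, by limma, beside 18.3% of all genes called higher and 19.3% lower, among them *Arnt* (0.44 ± 0.08), *Arnt2* (0.20 ± 0.05), which encodes a dimer partner of NPAS4, and *Atf4* (0.23 ± 0.06); at an unadjusted p under 0.05, 2 of the 14 were lower.

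The lists outside the activity response also held genes that differed by age, again beside 37.6% of all genes. Of 14 glucocorticoid response genes 2 rose and 4 fell, among them *Plin4* (2.47 ± 0.36), *Pdk4* (0.41 ± 0.11), *Ddit4* (-0.74 ± 0.10) and *Tsc22d3* (-0.56 ± 0.11). Of 16 clock genes 10 rose, including *Clock* (0.42 ± 0.06) and *Cry1* (0.56 ± 0.08), and *Rorb* fell (-0.21 ± 0.06). Of 14 heat shock genes 4 rose, including *Hsp90aa1* (0.42 ± 0.05) and *Chordc1* (0.57 ± 0.12), and *Hsp90ab1* fell (-0.15 ± 0.04). Their part in the levels of the members was not tested.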

How the data were processed

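RNA-seq libraries from forebrain (3 in each of 4 groups) were grouped by their titles. Per the labels and the methods of the study, the authors used an unstranded TruSeq kit, quantified transcripts with Salmon with GC bias correction, read them into R through tximport and normalized the table in DESeq2; the submitters' processing notes name Salmon 1.1.0, R 3.6.2, DESeq2 1.26.0 and GRCm38. The deposited values are therefore signal on a count scale (normalized counts), not whole reads, so no count model, as used in the study, was fitted here, the depth in reads is unknown, and no counting interval was computed. Symbols and lengths came from GENCODE M21, in which 19252 of 19268 identifiers were found.

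A gene entered a fit when its mean there reached 10, and log2(value + 1) was tested in R 4.3.3 by limma 3.58.1 (lmFit, then eBayes with trend) with Benjamini-Hochberg adjustment over all genes tested and a threshold of 0.05. Fold changes on this scale understate the changes of low genes. Two-sided exact permutation tests were run per member, within the other factor over both ages or genotypes, and correlations used 100000 permutations. The procedures were tested on simulated data.

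Named genes were the 10 members, *Shank3*, the 3 genes most like each member, and, from each other activity, glucocorticoid, clock and heat shock list, the genes with an adjusted p under 0.05 or, where over 4, the 2 per direction with the smallest; for the age comparisons this was done over both genotypes. The members and lists were chosen with earlier results of these data known. Alternatives changed the pseudocount (5), the minimum mean (1 or 100), the scaling, the variance model, the libraries in the fit and the promoter window, added the replicate number as a block, or left out 1 library. Leaving out the third replicate of both P25 groups and the block within age were chosen after seeing the data. *Fosl1*, *Hoxb2* and *Hoxa2* were on the lists and are not analysed here. 1 gene that the naming rule selected is not reported here.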

Additional observations from a re-analysis of the deposited data

How the results depend on the processing

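The genotype comparisons called 0 of 10 members under every alternative run and without any 1 library, at P25, at P60, over both ages and in the interaction, but these fits called only 0 to 8 of all genes, so this says nothing about stability. The number of members called between ages was less stable. In WT it was 0 and ranged from 0 to 4 when 1 library was left out; without the third replicate of both P25 groups it was 4, with 13.1% of all genes called in either direction. The calls over all genes in WT ran from 122 to 2403 when 1 library was left out. In KO it was 1, and 0 with no intensity trend or with all 4 groups in the fit; it was 7 without the third replicates (11.9% of all genes), and ranged from 0 to 7 when 1 library was left out (11.9% to 18.4% of all genes). Over both genotypes it was 1, ranged from 1 to 4 when 1 library was left out, and was 7 without the third replicates (32.6% of all genes). The third replicates were left out for being highest, which favours higher calls at P60 by construction. For *Npas4* in KO the limma adjusted p was 0.131 with no intensity trend and 0.0552 with all 4 groups in the fit, and the log2 fold change ranged from 0.42 to 0.92 when 1 library was left out. Over all genes, the calls between ages went from 1521 to 192 in WT and from 3641 to 1725 in KO with no intensity trend, and to 3442 and 2500 with all 4 groups in the fit. The causes were not tested.

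With 1 library left out, the difference between KO and WT over both ages changed sign for 9 genes. It ranged from -0.026 to 0.35 for *Fos*, from -0.25 to 0.36 for *Fosb*, from -0.10 to 0.20 for *Junb*, from -0.16 to 0.10 for *Egr1*, from -0.42 to 0.21 for *Egr2*, from -0.34 to 0.086 for *Arc*, from -0.10 to 0.22 for *Nr4a1*, from -0.13 to 0.095 for *Ier2* and from -0.13 to 0.076 for *Dusp1*. Without the third replicates it became 0.025 for *Egr1* and 0.0089 for *Dusp1*. The age difference over both genotypes ranged from -0.041 to 0.34 for *Fos*, from -0.23 to 0.38 for *Fosb*, from -0.067 to 0.20 for *Egr1* and from -0.20 to 0.43 for *Egr2*, and the interaction of *Npas4* from -0.10 to 0.39. Between 20 and 26 pairs had an r of at least 0.7 when 1 library was left out. With the search confined to the 250 bases before the start, the members with each motif did not change in number, and the share of all genes fell to 19.8% for the short element, 1.77% for the full element, 1.62% for the CArG box and 5.33% for the Egr site.

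Replicate numbers are shared between the groups, but the labels give them no meaning, and over all genes the deviations of same-numbered KO and WT libraries correlated with r = 0.04, -0.04 and -0.07 at P25 and 0.06, 0.17 and 0.13 at P60. With the replicate block, the median SE of the 10 genotype differences at P25 was 0.12 in place of 0.35 (range 0.085 to 0.198 in place of 0.238 to 0.706), with a lowest unadjusted limma p of 0.0234, 0 calls and a lowest limma adjusted p of 1.0 at P25 and 0.819 at P60. The block changed 1 member count, that of WT between ages, from 0 to 1 (*Npas4*, limma adjusted p = 0.0283). The groups held 3 libraries each and the depth is unknown.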
